A study of Mus musculus with 27 samples.

Results

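Loss of the transcription factor Nrf2 (gene symbol Nfe2l2) was examined in the esophagus of mice at postnatal day 7 (P7). Of the 27 arrays of the series, 6 make up this comparison: 3 of whole esophagi from wild-type C57BL/6J mice and 3 of whole esophagi from Nrf2-/- mice on a C57BL/6J background. They were taken by genotype and age from the labels, and no measured value was used to choose them. RNA came from individual mice, so an array stands for an animal; sex was not given in the sources used here, and neither was the part of Nfe2l2 that is deleted in this line. Each esophagus was labelled with Cy5 and hybridised together with a Cy3-labelled reference RNA pooled from mouse cell lines, so every level below is a log2 ratio of esophagus over reference, and every difference is the Nrf2-/- mean minus the wild-type mean on that log2 scale. A level of 0 means as much signal as in the reference RNA. A gene dim in both colours also lies near 0, so such a level alone shows neither presence nor absence of the transcript. For context, the same loss was read in 2 other places that share no array with it: Nrf2-/-Keap1-/- against Keap1-/- whole esophagi at P7, and Nrf2-/- against wild-type esophageal epithelium of adults at 8 weeks, with 3 arrays in each group. The mutants carry their alleles from birth in all tissues, and at P7 muscle, connective tissue and vessels are in the sample along with the epithelium. In such whole-tissue RNA, fewer cells of a type and less RNA per cell cannot be told apart.

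Nrf2 binds with a small Maf partner to antioxidant response elements and switches on genes for glutathione synthesis and transfer, quinone and carbonyl reduction, NADPH supply and drug export. Keap1 holds Nrf2 in the cytoplasm and directs it to degradation, and Nrf2 accumulates when oxidants or electrophiles modify Keap1. In stratified squamous epithelia such as the mouse esophagus, hyperactive Nrf2 without Keap1 is known to thicken the cornified layer, so the barrier genes of that layer are read here beside the antioxidant targets.

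Squamous markers were strong on all 6 arrays. The mean level over 12 markers of stratified squamous epithelium (Krt5, Krt14, Krt4, Krt13 and others) lay between 3.632 and 4.161, and 0 of the 12 was below background throughout. The 6 arrays were of like brightness, with median Cy5 intensities of 88.53 to 117.1 and 61.32 to 65.7% of spots well above background in Cy5. The 3 wild-type arrays lay on one slide and the 3 Nrf2-/- arrays on another, scanned together with the same software, so slide and genotype cannot be told apart.

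Several of the 6 arrays stood apart in genes of neighbouring organs. On Nrf2-/- replicate 3, 346 genes were more than 1 log2 unit above every other array, and 11 of 13 liver genes had their highest level there. The mean liver gene level was 5.119 on that array and between 1.73 and 3.236 on the other 5. Transthyretin (Ttr), a liver plasma protein, reached 5.79 there against at most 1.46 elsewhere. On wild-type replicate 1, 94 genes were more than 1 log2 unit above the rest, and all 14 of a list of stomach and pancreas genes peaked there, with a mean level of 4.265 against -0.2010 to 1.675 on the others. On wild-type replicate 2, 225 genes were more than 1 log2 unit below the rest, and the mean of 12 skeletal muscle markers was 3.312 there against 4.117 to 4.419. Xist, the transcript of the inactive X chromosome, was at 1.42, 1.46 and 1.01 in wild-type mice but at -2.93, 0.83 and -2.73 in Nrf2-/- mice, and the Y-linked gene Eif2s3y was high in Nrf2-/- replicates 1 and 3 only. So the wild-type arrays carried the female pattern and 2 of the 3 Nrf2-/- arrays the male pattern. The liver, stomach and pancreas lists were drawn up after these values had been seen. The part of these differences in the results below was not tested, but each main count is also given without wild-type replicate 1 and Nrf2-/- replicate 3, or with the Eif2s3y level as a covariate, where that moves it.

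Across the transcriptome, very few genes passed the test for Nrf2 loss at P7, which is not a count of the genes that changed. Of 17857 genes tested with limma, 3 passed a Benjamini-Hochberg adjusted p of 0.05, which is 0.0168% of them: Nfe2l2 and the uroplakin gene Upk3a fell, and Rbm45 rose. The count was 2 without wild-type replicate 1 and Nrf2-/- replicate 3, and 2 with the Eif2s3y level as a covariate. At an unadjusted p below 0.05 there were 1928 genes, 996 higher and 932 lower in Nrf2-/- mice. That is more than a share of 0.05 of the tested genes, the share expected without any effect. The part of slide, sex or neighbouring organs in this excess was not tested. In simulated data for this comparison, 75 of 100 genes with a change of 1 log2 unit were called. With 2 log2 units 100 of 100 were called, so genes with smaller changes can go uncalled. Loess centres each array, so a shift of all genes together could not be seen, and differences are relative to the genes at large. Shifts that did not pass the test are described below by whether the 3 mutant arrays lay apart from the 3 wild-type arrays.

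Nfe2l2 itself was the gene with the strongest decrease. Its levels were -0.23, 0.00 and -0.55 in the 3 wild-type esophagi and -3.92, -3.92 and -3.82 in the 3 Nrf2-/- esophagi. All 3 mutants thus lay far below all 3 wild-types, with almost no spread among themselves. The difference was -3.63 (SE 0.126, n = 3 and 3, limma adjusted p = 2.34e-07), as the mean over 3 probes that are given one by one next, so it is no fold of the transcript. Without 1 mouse at a time it stayed between -3.77 and -3.50.

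The 3 probes of Nfe2l2 did not behave alike, as the plot of probe levels shows. In the mm9 annotation of the array, probe A_51_P411271 lies at chr2:75513771-75513830 and probe A_52_P396436 at chr2:75513917-75513976, close together, and A_52_P523835 lies apart at chr2:75529947-75530006. At the first probe the mean level went from 0.06 in wild-type to -6.496 in Nrf2-/- esophagi, where 0 of 3 spots were well above background, so that the wild-type signal was at least 86-fold higher. At the second it went from 0.08 to -4.12, still above background on 3 of 3 mutant arrays. At the third it was -0.91 in wild-type and -1.04 in mutant esophagi, a difference of -0.13 that was smaller than the SD of either group (0.22 and 0.29). The Nrf2-/-Keap1-/- esophagi gave the same picture, with levels of -6.79 to -6.74 at the first probe and -1.50 to -1.05 at the third. Transcript signal was thus lost at 2 adjacent probes and not at the distant one. Whether the latter reads Nfe2l2 sequence that the mutant allele still makes cannot be told from these files.

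**Figure D1:**
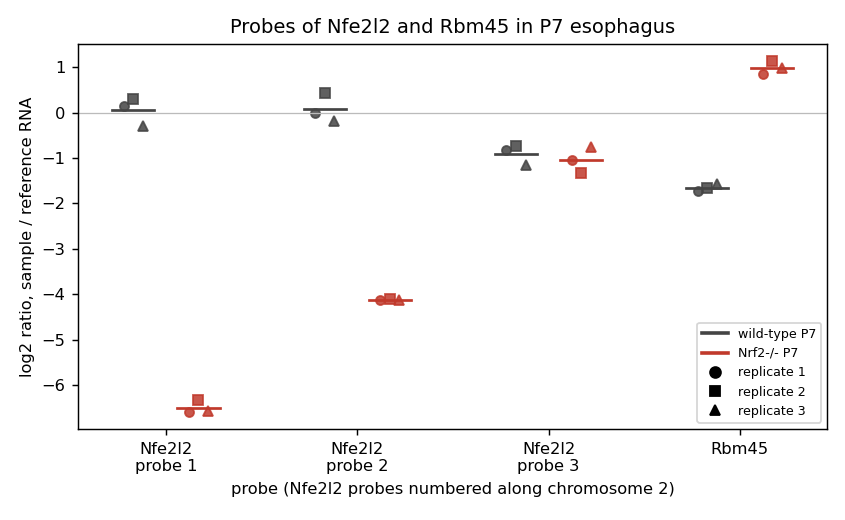
Levels (y axis, log2 ratio of sample over reference RNA) of the 3 Nfe2l2 probes, numbered along chromosome 2, and of the Rbm45 probe (x axis) on the 3 wild-type (grey) and 3 Nrf2-/- (red) P7 arrays; symbols mark replicates and bars the group means. Probes 1 and 2 of Nfe2l2 dropped to means of -6.496 and -4.12 in Nrf2-/- esophagi, probe 3 stayed near -1, and Rbm45 rose from -1.65 to 0.99.

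Rbm45, which encodes an RNA-binding protein, was the only gene called higher. Its levels were -1.72, -1.66 and -1.57 in wild-type esophagi and 0.85, 1.13 and 0.98 in Nrf2-/- esophagi, with no overlap and a narrow spread in both groups. The difference was 2.64 (SE 0.0963, limma adjusted p = 2.34e-07), a 6.24-fold higher signal. It was found again in both independent settings, at 2.99 in adult epithelium (adjusted p = 2.23e-05) and at 2.82 between Nrf2-/-Keap1-/- and Keap1-/- esophagi (adjusted p = 1.07e-08). Keap1-/- esophagi, with intact Nrf2, had Rbm45 levels of -1.69, -1.88 and -1.88, near the wild-type values. Rbm45 is on the same chromosome as the deleted gene, 0.701 Mb away, with its probe spanning chr2:76218588-76221536 in mm9.

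Other genes around Nfe2l2 were followed for this reason. Within 1.5 Mb on each side, 40 other genes had a probe, 21 were tested, and Rbm45 alone was called. Nearest to the Nfe2l2 probes on one side was the uncharacterised transcript 6030499A19Rik, 19.5 kb from their centre. Whether its probe, at chr2:75538751-75538810, lies outside Nfe2l2 or within it cannot be told here. Levels of 6030499A19Rik were -0.48, -0.04 and -0.45 in wild-type and -1.12, -1.71 and -1.25 in Nrf2-/- esophagi. The groups did not overlap, but the difference of -1.03 (SE 0.232) had an adjusted p of 0.295 by limma over all genes. In the Keap1-/- background, loss of Nrf2 gave -1.18 for the same transcript, with an adjusted p of 0.00291. The nearest gene on the other side, the RNA-binding protein gene Hnrnpa3, differed by -0.05 (SE 0.103), and Mtx2, a mitochondrial import gene, by -0.13 (SE 0.158). The other 3 of the nearest genes, 2600014E21Rik, AK042400 and AK084695, were too dim to be tested. Over the window, 1 of 21 tested genes lay below wild-type without overlap and 5 above, Rbm45 among them, against 8.39% and 8.19% of all tested genes. Another of the 5 was the muscle gene Ttn, at 3.86, 2.50 and 3.99 in wild-type and 4.21, 4.30 and 4.77 in Nrf2-/- esophagi, lowest on the wild-type array that was low in skeletal muscle markers. A further one, the transcript ENSMUST00000099980, lies within the stretch of the Ttn probes and may read the same gene. Its levels were 3.803, 2.611 and 4.209 against 4.218, 4.349 and 4.625, lowest on the same array, so the 5 may not be 5 separate genes.

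Upk3a, a uroplakin of the apical plaque of urothelium and related surface cells, was the third gene called. Its levels were 0.40, 0.19 and 0.57 in wild-type and -1.21, -0.94 and -1.04 in Nrf2-/- esophagi, again with clear separation. The difference was -1.45 (SE 0.151, limma adjusted p = 0.0078), 2.73-fold lower. The call was less secure than those of Nfe2l2 and Rbm45, and was lost under 8 of the alternative settings. Among them were the removal of wild-type replicate 1 (difference -1.45) or Nrf2-/- replicate 1 (-1.38). It was also lost without wild-type replicate 1 and Nrf2-/- replicate 3 together, and with the Eif2s3y level as a covariate. With the signals as processed by the scanner software the difference was -2.29 and not called. Nrf2-/-Keap1-/- esophagi, set against the same wild-type arrays, gave -1.26 (adjusted p = 0.0158). In the comparisons with other controls no decrease was called: adult epithelium gave -0.52 (adjusted p = 0.172), and in the Keap1-/- background the difference had the other sign, 0.67 (adjusted p = 0.00614). Upk3a levels were also low in Keap1-/- esophagi, at -1.50, -1.65 and -1.47, and in Nrf2-/-Keap1-/- esophagi, between -1.07 and -0.54. Wild-type mice therefore had the highest level of the 4 genotypes at P7. Of the other uroplakins and surface proteins, 7 more were tested and 0 was called, with Muc20 at -0.50 (limma adjusted p = 0.445) and Muc1 at -0.60 (limma adjusted p = 0.59) closest.

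Of the 4 genes next beyond the threshold 3 lay higher in Nrf2-/- esophagi by limma, Lrp5 (0.80, adjusted p = 0.0535), a Wnt co-receptor, Sparc (0.86, adjusted p = 0.0797), a matrix protein, and the immediate early gene Egr1 (1.34, adjusted p = 0.0917). The fourth, a transcript known in the files only as TC1654271, lay lower (-0.81, adjusted p = 0.0917). They were singled out after their values had been seen.

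Keap1 and the partners of Nrf2 stayed within the spread. Keap1 levels were 0.54, 1.00 and 0.42 in wild-type and 1.02, 0.81 and 1.24 in Nrf2-/- esophagi, overlapping, with a difference of 0.37 (SE 0.224, limma adjusted p = 0.563). Keap1-/- esophagi read -0.27, 0.22 and 0.64 at the same probe, a difference from wild-type of -0.45 (limma adjusted p = 0.138). The probe thus did not set Keap1-/- esophagi clearly apart, which limits it as a reading of Keap1. Of 15 genes that encode Nrf2, its relatives, its Maf partners, the competing repressors Bach1 and Bach2 and the degradation machinery, only Nfe2l2 was called. The nearest of the others were Bach1 at 0.46 (unadjusted p = 0.0752) and the Nrf2 relative Nfe2l3 at -0.26 (unadjusted p = 0.113).

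The known Nrf2 targets moved little at P7, but mostly in one direction. Of 45 listed targets 44 were on the array and 41 were tested, and 0 passed the adjusted threshold of limma, while 12 had an unadjusted p below 0.05. The difference was negative for 31 of the 41 (75.6%, against 50.5% of all tested genes), with a median of -0.21 and a range from -2.90 for Gpx2 to 0.43 for Hmox1. With median centring in place of loess the median was -0.10, and without outlier-marked spots, which left 21 targets, it was -0.08. In 10 of the 41 (24.4%) all 3 Nrf2-/- arrays lay below all 3 wild-type arrays, which was so for 8.39% of all tested genes. In 1, the epoxide hydrolase gene Ephx1, they lay above (0.32), against 8.19% of all tested genes. Abcc2, Aldh3a1 and the cystine transporter gene Slc7a11 were not tested, since they were well above background on at most 1 of the 6 arrays, and Ugt1a6a had no probe. The 10 separated targets are Gpx2, Nqo1, Cbr3, Gsta1, Gstm1, Me1, Abcc3, G6pdx, Srxn1 and Abcc4. The count was 13 of 41 without wild-type replicate 1 and 15 without Nrf2-/- replicate 3, where 14.3% and 12.5% of all tested genes separate, since fewer arrays separate more easily. It was 16 without wild-type replicate 3, against 15.9%, and 20 without both wild-type replicate 1 and Nrf2-/- replicate 3, against 19.5%.

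**Figure D2:**
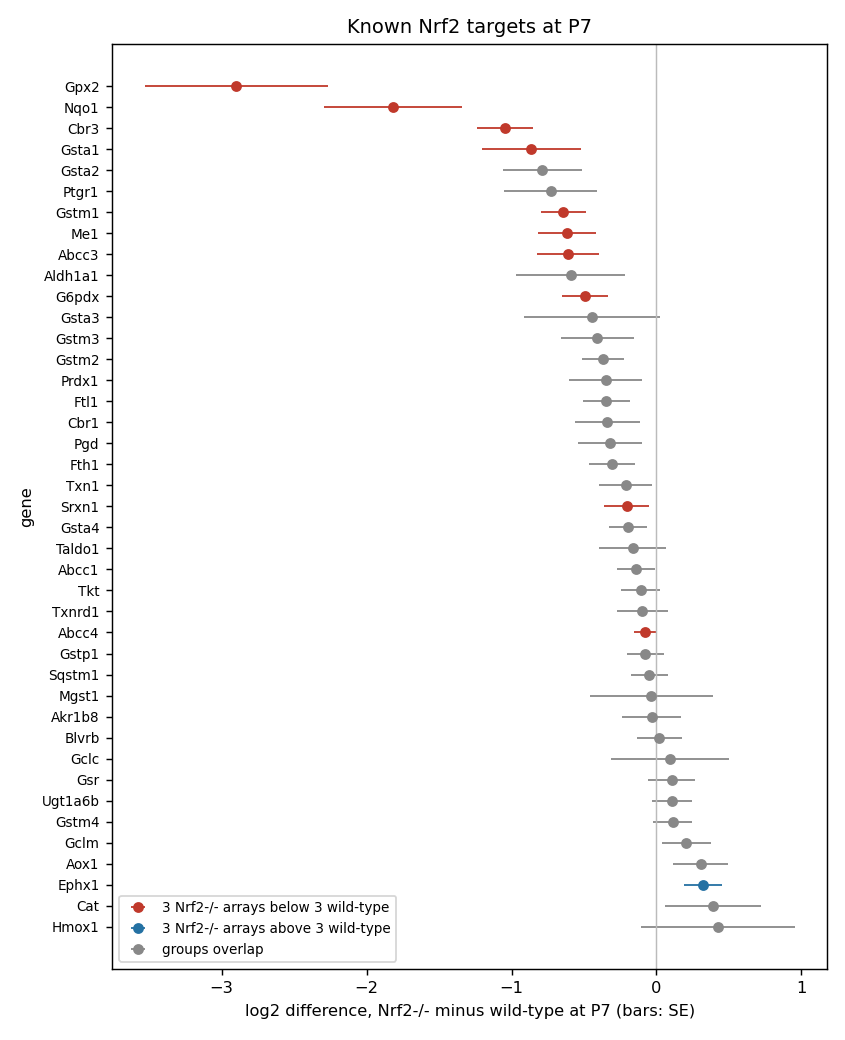
Difference (x axis, log2, Nrf2-/- minus wild-type at P7, with its SE) for each of the 41 tested known Nrf2 targets (y axis), coloured by whether the 3 arrays of each group overlapped. Most points lie left of 0, and 10 genes had all Nrf2-/- arrays below all wild-type arrays.

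Among these 10, promoter sequence was read for the genes whose groups lay apart, since Nrf2 acts through short elements. The windows are the 250 bases before and 50 after the annotated start (RefSeq, GRCm38.p6), and the core of the antioxidant response element was searched as TGACNNNGC on both strands. The Me1 core overlaps the AP-1 motif TGACTCA. A window holding the core was found for 14% of 27025 genes, for 11 of 37 known targets (29.7%) and for 4 of the 9 separated targets that had a window (Srxn1, Me1, Abcc4 and G6pdx). The 2 targets with the best separation by p, Cbr3 and Gpx2, had none in this window. Capitals mark the core, all stretches run 5′ to 3′ on the strand of the gene, and those without capitals are shown for contrast.
G6pdx, chrX:74428881-74428997, minus strand: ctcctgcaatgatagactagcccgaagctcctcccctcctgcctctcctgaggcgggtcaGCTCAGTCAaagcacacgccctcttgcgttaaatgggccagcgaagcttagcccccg
Me1, chr9:86695912-86695980, minus strand: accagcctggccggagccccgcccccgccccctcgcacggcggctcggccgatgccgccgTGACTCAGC
Abcc4, chr14:118706220-118706304, minus strand: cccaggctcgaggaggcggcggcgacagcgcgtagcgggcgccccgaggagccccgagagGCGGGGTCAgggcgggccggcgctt
Gpx2, chr12:76795555-76795804, minus strand: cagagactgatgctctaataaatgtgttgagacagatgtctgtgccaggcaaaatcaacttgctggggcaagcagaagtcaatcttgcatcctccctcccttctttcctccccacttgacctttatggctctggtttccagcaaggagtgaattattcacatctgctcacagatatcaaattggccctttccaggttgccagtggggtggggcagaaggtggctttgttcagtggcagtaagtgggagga
Cbr3, chr16:93682969-93683218, plus strand: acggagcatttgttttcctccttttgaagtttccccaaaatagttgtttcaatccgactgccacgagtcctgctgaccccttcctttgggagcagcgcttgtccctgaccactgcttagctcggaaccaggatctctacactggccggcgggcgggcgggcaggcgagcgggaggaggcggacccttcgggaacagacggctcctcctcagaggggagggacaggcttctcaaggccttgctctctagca
A core in these letters is a description and not a shown binding site, and its absence from the window says nothing of elements farther away.

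Gpx2, the gastrointestinal glutathione peroxidase, showed the lowest difference of all targets. Its levels were 5.02, 5.06 and 3.65 in wild-type and 2.08, 1.93 and 1.04 in Nrf2-/- esophagi. The groups did not overlap, but the lowest wild-type value was far below the other wild-types, and the difference of -2.90 (SE 0.633, 7.46-fold lower) had a limma adjusted p of 0.29. It lay between -3.36 and -2.58 when each mouse was left out in turn. In a fit over all 27 arrays the same difference was called, with an adjusted p of 0.0207.

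Nqo1, the quinone reductase that is the textbook Nrf2 target, had levels of 0.45, -1.06 and -1.96 in wild-type and -2.63, -2.71 and -2.69 in Nrf2-/- esophagi. The mutants were tight and low, and the wild-types were widely spread above them, with the highest value on the array rich in stomach and pancreas transcripts. The difference was -1.82 (SE 0.476, limma adjusted p = 0.353), and -1.17 without that array.

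Cbr3, a carbonyl reductase, had the lowest p of the targets. Its levels were 2.63, 2.79 and 2.24 in wild-type and 1.36, 1.89 and 1.28 in Nrf2-/- esophagi. The groups were separate with a like spread, and the difference of -1.04 (SE 0.197, 2.06-fold lower) had a limma adjusted p of 0.215. All 6 Cbr3 spots carried the scanner's outlier mark, so Cbr3 could not be read where marked spots were left out.

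The glutathione S-transferases couple glutathione to electrophiles. Gsta1 stood at 4.09, 3.49 and 3.13 in wild-type against 2.73, 3.11 and 2.28 in Nrf2-/- esophagi, a difference of -0.86 (SE 0.344). Wild-type replicate 3 and Nrf2-/- replicate 2 almost touched. Gstm1 stood at -0.75, -0.79 and -1.13 against -1.36, -1.65 and -1.58, a difference of -0.64 (SE 0.157), with a clear gap. Gsta1 shares close sequence with Gsta2 (-0.79, SE 0.274), so their probes may read both. Of 22 transferases tested 0 was called, 16 differences were negative, the median was -0.28, and 2 (9.09%) lay below without overlap, near the 8.39% of all tested genes. Gsta3 and the microsomal Mgst1 were split by Nrf2-/- replicate 3, the array high in liver transcripts: Gsta3 was at -0.05 and 0.30 in the other mutants and 2.14 there, and Mgst1 at -0.92 and -1.09 and then 1.02. Without that array their differences were -1.12 and -0.71, against -0.44 and -0.03 with it.

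NADPH, which the reductases consume, is made by G6pdx, Me1 and Idh1 among others. G6pdx, the entry enzyme of the pentose phosphate pathway, had levels of -0.77, -0.24 and -0.84 in wild-type and -1.20, -0.92 and -1.20 in Nrf2-/- esophagi (difference -0.49, SE 0.157). Me1, malic enzyme, had levels of 0.97, 1.21 and 0.55 against 0.38, 0.46 and 0.05 (difference -0.62, SE 0.200). Idh1, isocitrate dehydrogenase, had levels of 1.09, 1.07 and 1.31 against 0.73, 1.03 and 0.83 (difference -0.30, SE 0.130). All 3 lay below without overlap, which makes 3 of the 8 tested genes of this list (37.5%, against 8.39% of all tested genes), and 7 of the 8 differences were negative. Without wild-type replicate 2 the G6pdx difference was -0.31. None was called, with limma adjusted p of 0.389, 0.397 and 0.457.

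The export pump gene Abcc3 differed by -0.61 (SE 0.216), but its lowest wild-type and highest Nrf2-/- levels were both -0.55, and without wild-type replicate 2 the difference was -0.33. Separated shifts were also seen for sulfiredoxin, Srxn1 (-0.21, SE 0.154), and for the pump gene Abcc4 (-0.08, SE 0.0751). In Srxn1 the values were -1.18, -1.02 and -1.22 against -1.36, -1.33 and -1.35. The SDs of these groups were 0.10 and 0.01, while the SE of Srxn1 also carries the spread of the other P7 genotypes. The Abcc4 shift was the size of its own standard error and had the other sign, 0.04, with the scanner's processed signals.

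**Figure D3:**
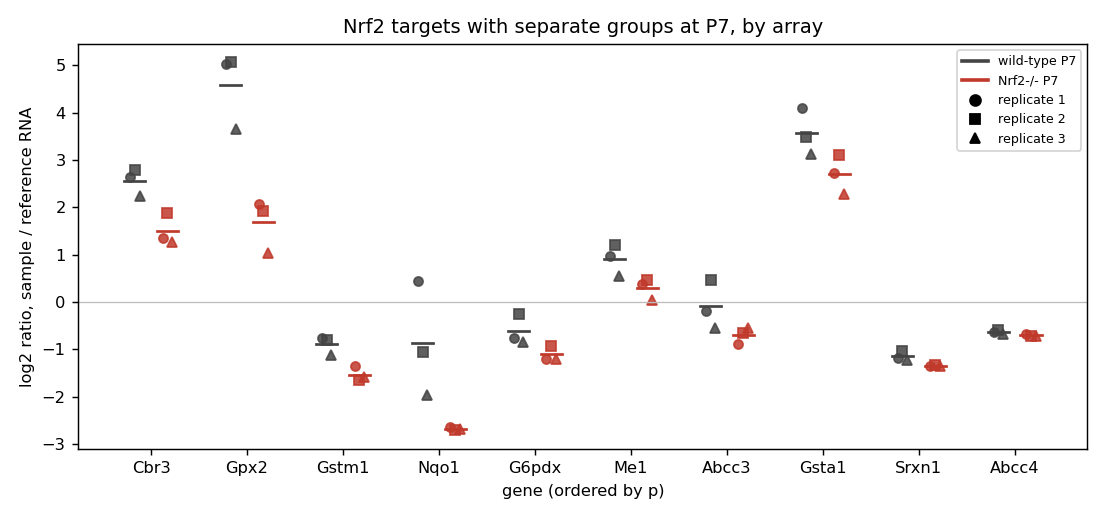
Levels (y axis, log2 ratio of sample over reference RNA) of the 10 known Nrf2 targets whose 3 Nrf2-/- P7 arrays (red) lay below the 3 wild-type P7 arrays (grey), ordered by p on the x axis; symbols mark replicates and bars the means. Gpx2, Nqo1 and Cbr3 show the widest gaps, and Nqo1 is tight in Nrf2-/- esophagi near -2.7 but spread in wild-type.

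Other classical targets gave no separation. The catalytic and modifier subunits of glutamate-cysteine ligase, which limit glutathione synthesis, differed by 0.09 (Gclc, SE 0.406) and 0.21 (Gclm, SE 0.169). Gclc was at -0.51 and -0.62 in 2 mutants and at 1.08 on the array high in liver transcripts, and its difference was -0.45 without that array. The list of glutathione synthesis and cystine uptake had 8 tested genes with 0 called, 0 separated in either direction and a median of 0.08. Heme oxygenase Hmox1 (0.43, SE 0.530) and catalase Cat (0.39, SE 0.334) were also highest on that array, and without it their differences were 0.12 and -0.01. Thioredoxin reductase Txnrd1 (-0.10, SE 0.175), the aldo-keto reductase Akr1b8 (-0.03, SE 0.206) and Gstp1 (-0.08, SE 0.128) overlapped between groups. Among quinone, carbonyl, aldehyde and heme enzymes 26 were tested, 0 called and the median was -0.06. Among thioredoxin, peroxiredoxin and peroxide enzymes 16 were tested, 0 called and the median was 0.02. Of 269 tested genes of a published list of Nrf2 binding in mouse embryonic fibroblasts, Nfe2l2 alone was called, and the median was -0.01. Without overlap, 26 lay below (9.67%, close to the 8.39% of all genes) and 13 above, against 8.19% of all tested genes.

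The same targets were read in the other settings. In adult epithelium 248 of 17809 genes were called (1.39%), and 17 of 41 tested targets were among them, all lower, with a median difference over the targets of -0.68, although Gpx2 (-0.69), Me1 (-0.05) and Gsta1 (-0.74) were nearer to 0 there than at P7. Between Nrf2-/-Keap1-/- and Keap1-/- esophagi at P7 6345 of 18191 genes were called (34.9%), with 40 of the 41 targets lower and a median of -2.77. Tissue and age change together between P7 and adults, so those 2 cannot be told apart. In adults, wild-type replicates 1 and 2 had an earlier scan and software version 10.5.1.1. Wild-type replicate 3 and all Nrf2-/- adult arrays had later scans and version 10.7.3.1, and no slide held both adult genotypes. Slide, scan and software thus largely follow genotype in the adult comparison and cannot be fully told apart from it. Among the P7 arrays, the Keap1-/- arrays lay alone on their slide, scan and software version, so these cannot be told apart from Keap1 loss.

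The difference between settings was tested directly. The effect of Nrf2 loss at P7 differed from that in adults for 16 of 19129 genes (0.0836%, limma interaction), 5 with a higher and 11 with a lower value at P7. Among them were 2 known targets. Akr1b8 levels in adults were -0.09, -0.02 and -0.33 in wild-type and -2.85, -2.85 and -2.99 in Nrf2-/- epithelium, while at P7 they were -2.06, -2.39 and -2.91 and then -2.58, -2.60 and -2.28. The 3 wild-type P7 esophagi were thus already about as low as adult epithelium without Nrf2. The effects were -2.75 in adults and -0.03 at P7, and they differed by 2.72 (SE 0.265, adjusted p = 0.00355). Gstp1 was at 0.89, 1.07 and 1.06 against -0.89, -0.76 and -0.73 in adults, and at -1.03, -1.24 and -1.38 against -1.33, -1.38 and -1.17 at P7, effects of -1.80 and -0.08 that differed by 1.73 (SE 0.161, adjusted p = 0.0033). No other known target had a called difference between the ages, Gpx2 included (-2.90 at P7 and -0.69 in adults, adjusted p = 0.174). With Eif2s3y as a covariate 0 genes were called, and without Nrf2-/- replicate 1 there were 4.

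**Figure D4:**
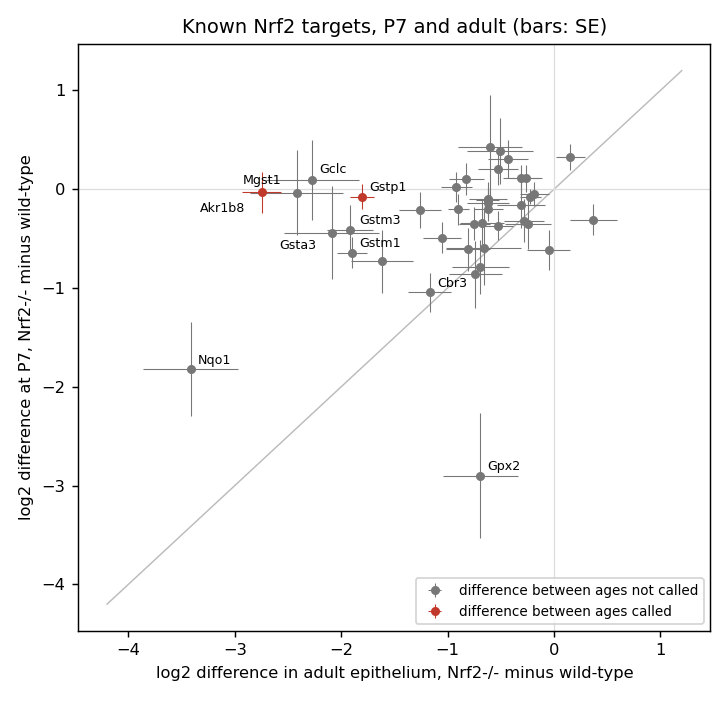
Effect of Nrf2 loss on the known Nrf2 targets at P7 (y axis) against adult epithelium (x axis), both log2 differences with SE; the diagonal marks equal effects. Akr1b8 and Gstp1 (red) differed between the settings, with effects near 0 at P7 and of -2.75 and -1.80 in adults while Gpx2 lies below the diagonal, at -2.90 at P7 and -0.69 in adults.

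The dependence on Keap1 was broader. The effect of Nrf2 loss differed between intact and deleted Keap1 for 2852 of 18812 genes (15.2%, limma interaction), including 40 known targets, all 40 with the more negative effect in the Keap1-/- background, by 0.779 to 6.503. Of the 41 targets tested for Nrf2 loss at P7, 38 were among them. Slc7a11 and Aldh3a1, not tested there, were the others. For Gstm1 the effect was -0.64 with Keap1 and -6.68 without, for Nqo1 -1.82 and -6.33, and for Cbr3 -1.04 and -3.71. Nqo1 levels show the range: 3.95, 3.99 and 4.18 in Keap1-/-, -2.65, -1.67 and -2.56 in Nrf2-/-Keap1-/-, and those given above in wild-type and Nrf2-/- esophagi. Wild-type Nqo1 was therefore much nearer to the Nrf2-/- level than to the Keap1-/- level. Gsta2 was not called (difference 1.05, adjusted p = 0.0932). Nor was Gpx2, with -2.90 with Keap1 and -3.17 without, a difference of 0.27 (adjusted p = 0.874). Its Keap1-/- levels were 6.40, 5.68 and 6.03, and its wild-type levels already reached 5.06. The count of 2852 fell to 1808 without wild-type replicate 1 and Nrf2-/- replicate 3, and to 1187 with Eif2s3y as a covariate.

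The barrier genes form the cornified envelope, the protein shell of the outermost squamous cells. Of 63 listed genes 56 were on the array and 49 were tested, and 0 passed the adjusted threshold of limma, with 3 at an unadjusted p below 0.05. Loricrin (Lor), the major envelope protein, had levels of 6.79, 7.41 and 6.68 in wild-type and 6.28, 6.25 and 5.81 in Nrf2-/- esophagi, a difference of -0.84 (SE 0.212, adjusted p = 0.345). The small proline-rich envelope precursors Sprr2k (3.57, 3.93 and 3.61 against 3.28, 3.38 and 3.19) and Sprr2b (4.58, 4.56 and 4.44 against 3.93, 4.44 and 4.18) differed by -0.42 (SE 0.148) and -0.34 (SE 0.155). These 3 of 49 lay below without overlap (6.12%, against 8.39% of all genes) and 0 lay above (against 8.19%). Sprr2b nearly touched, with 4.44 in both groups to 2 decimals. Involucrin (Ivl, 0.20) and the crosslinking enzymes Tgm1 (0.02) and Tgm3 (0.08) were close to 0. Lor gave -0.32 in adults and -0.41 in the Keap1-/- background, neither called.

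The median barrier difference of -0.36, with 38 of 49 negative, was closer to 0 without Nrf2-/- replicate 3. The 14 tested late cornified envelope (Lce) genes, envelope proteins made last in differentiation, had median levels of 4.24, 4.60 and 2.89 in the wild-type and 4.20, 2.24 and 0.03 in the Nrf2-/- esophagi. So Nrf2-/- replicate 1 lay within the wild-type range, replicate 2 below it, and replicate 3 lowest. Lce3f showed the same order, with 7.71, 8.08 and 7.32 against 7.46, 6.98 and 2.64. Kprp, a keratinocyte proline-rich protein, was likewise lowest on replicate 3 but above wild-type on replicate 1, with 5.55, 6.20 and 5.37 against 6.79, 3.40 and 1.12, a difference of -1.93 with an SE of 1.41. Lce1f had the lowest difference, -2.22. The medians of the 10 small proline-rich genes were not split in this way. They lay just below wild-type on the 3 Nrf2-/- arrays, at 3.36 to 3.85 in wild-type and 3.08 to 3.34 in Nrf2-/- esophagi. Within this family Sprr2e was lowest on replicate 3, with 2.805, 3.104 and 2.997 against 2.87, 2.778 and 1.523. Without replicate 3 the median barrier difference was -0.14, and 4 genes were separated in either direction, against 24.3% of all tested genes. Wild-type replicate 2 had the highest barrier gene levels, and without it the median was -0.23. Without Nrf2-/- replicate 1 the median was -0.45 and 23 of 48 were separated, against 25.4%. Without wild-type replicate 1 and Nrf2-/- replicate 3 the separated genes numbered 10 of 48, against 36.6%.

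**Figure D5:**
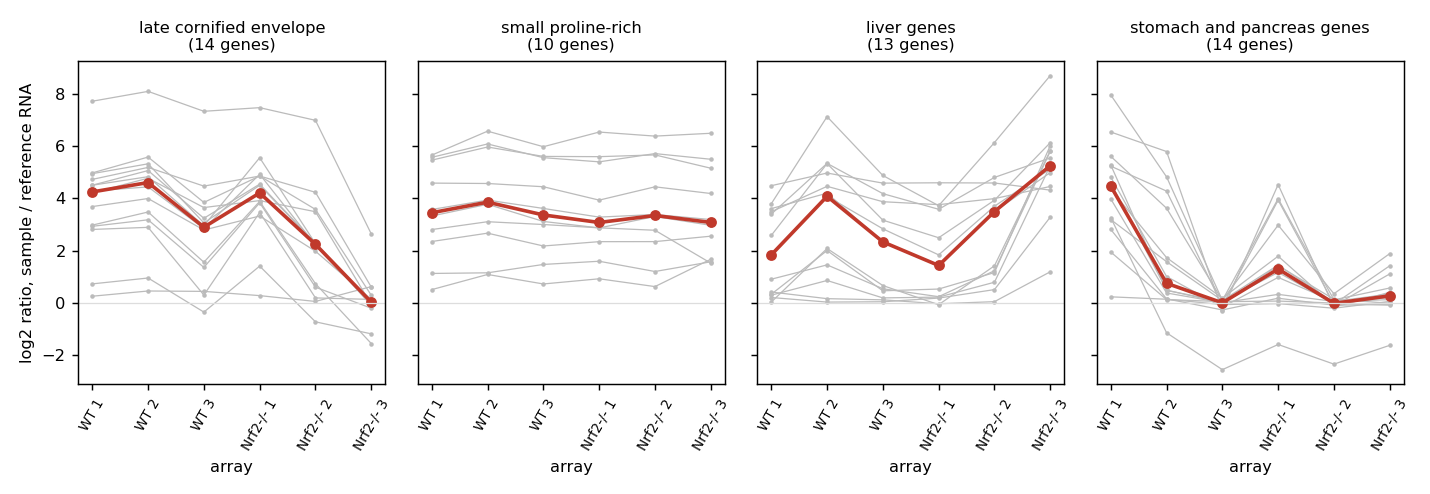
Levels (y axis, log2 ratio of sample over reference RNA) of late cornified envelope, small proline-rich, liver, and stomach and pancreas genes on each of the 6 P7 arrays (x axis); thin lines are genes and the red line their median. Nrf2-/- replicate 3 (right) was low in Lce genes, at a median of 0.03, and high in liver genes, and wild-type replicate 1 (left) was high in stomach and pancreas genes, while the small proline-rich gene medians ranged from 3.08 to 3.85.

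Other parts of the squamous epithelium had mostly negative differences, with wild-type replicate 2, the array low in muscle markers, highest. Of 19 tested keratins 17 differences were negative, with a median of -0.25 and 0 called, and 3 were separated below (15.8%, against 8.39% of all tested genes). Relative to each gene's wild-type mean, the keratin medians were -0.09, 0.32 and -0.25 in wild-type and -0.26, -0.20 and -0.19 in Nrf2-/- esophagi, so wild-type replicate 3 lay among the mutants. The part of replicate 2 in these differences was not tested. Krt16, a keratin of activated and hyperproliferative epithelium, had levels of 4.54, 4.87 and 4.33 against 3.63, 3.85 and 4.10 (difference -0.71, SE 0.243, unadjusted p = 0.0138). Krt15, a basal cell keratin, had 4.08, 4.18 and 4.24 against 3.77, 4.02 and 3.98 (-0.25, SE 0.119). Krt79, the third separated keratin, had 3.174, 1.407 and 1.405 against 1.239, 0.983 and 0.6719 (-1.031, SE 0.4584). Its highest value was on wild-type replicate 1, and the difference was -0.2953 without that array and Nrf2-/- replicate 3. Of 18 tested genes for barrier lipids 15 were negative, with a median of -0.34 and 0 called. The fatty acid hydroxylase Cyp4f39 (-0.70, SE 0.265) was separated, and the cholesterol sulfotransferase Sult2b1 (-0.36, SE 0.171) overlapped. Against that run, the epidermal lipoxygenase Alox12e was at 2.28, 2.96 and 2.46 in wild-type and 3.96, 3.44 and 3.72 in Nrf2-/- esophagi, a difference of 1.14 (SE 0.186). Its limma adjusted p was 0.164, and it was called without wild-type replicate 2 (1.34), with median centring (1.00) and with the slide as a random block (1.15). Nrf2-/-Keap1-/- esophagi, at 2.715, 2.446 and 2.749, lay within the wild-type range (difference 0.07, limma adjusted p = 0.885). Against Keap1-/- esophagi they gave 2.63 (adjusted p = 3.61e-06), and Nrf2 loss in adult epithelium gave 1.21 (adjusted p = 0.274). Cell junction genes (27 tested, median -0.11) and genes of the basal layer (14 tested, median -0.08) had 0 called.

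Stress and defence programmes outside the Nrf2 targets held 0 called genes, among 12 of the integrated stress response (median 0.00), 9 of the heat shock response (0.06), 11 p53 targets (0.08), 9 of metal handling (-0.15), 16 of inflammation and innate defence (-0.08) and 15 of the cell cycle (-0.13). In the stress response list Atf5 (0.81, SE 0.315) was highest on Nrf2-/- replicate 3 and was at 0.34 without it. Differences were negative for 8 of 9 genes of metal handling and 12 of 15 of the cell cycle, and for 2 of 11 p53 targets. At an unadjusted p below 0.05 these 6 lists held 1 gene in all, Atf5.

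Fat marker levels lay higher on the Nrf2-/- arrays. The mean level of 8 fat markers ran from 1.658 to 2.154 on the wild-type and from 2.536 to 3.335 on the Nrf2-/- arrays, without overlap. Adipsin (Cfd) was at 0.32, 0.96 and 0.88 against 2.41, 3.56 and 3.34 (difference 2.38, limma adjusted p = 0.212), and Ucp1, the uncoupling protein of brown fat, at -0.03, -0.26 and 0.42 against 2.54, 1.96 and 4.29 (difference 2.88). Cfd was also above wild-type in Keap1-/- esophagi, which have intact Nrf2, at 3.55, 4.614 and 4.942. In Nrf2-/-Keap1-/- esophagi it was at 5.548, 5.923 and 6.67, so wild-type mice had the lowest Cfd level of the P7 genotypes. Cidea (-0.27) and Fabp4 (0.17), also fat markers, overlapped. Of the 16 Ppar receptors and targets, many of them active in fat, 3 were separated above, against 8.19% of all tested genes, and the median was 0.20, with Plin1 at 1.22, Ppara at 0.83 and Cd36 at 0.75. Without Nrf2-/- replicate 3 Ppara was at 0.38, and without wild-type replicate 2 Cd36 was at 0.38. Relative to each gene's wild-type mean, the median of this list was -0.06, 0.08 and 0.64 in the 3 mutants. Whether these genes moved in the epithelium or with the amount of fat in the sample was not tested. Endothelial markers (8 tested, median 0.21) and skeletal muscle markers (12 tested, median 0.52) had 3 and 4 genes separated above, against 8.19% of all tested genes, and 0 in each was called; skeletal muscle was low on wild-type replicate 2. Smooth muscle (-0.14), fibroblast (0.09), immune (0.11), red cell (0.02) and nerve and glia markers (0.29) had small medians of difference. Stomach and columnar markers had a median of -0.75. Relative to each gene's wild-type mean, their medians were 1.36, 0.04 and -0.84 in wild-type and -0.13, -0.99 and -0.91 in Nrf2-/- esophagi. The part of wild-type replicate 1 in this difference was not tested.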

How the data were processed

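2-colour Agilent mouse arrays were analysed from the scanner files. Per the labels, the authors labelled 1 µg of total RNA with Cy5, and reference RNA with Cy3, with no dye swap. Deposited intensity values (mean signal and median local background per spot) came from Agilent Feature Extraction, given as version 9.1 in the submitters' processing notes and as 10.5.1.1 in the headers of the 6 files. The log10 ratios the authors deposited served as an alternative only; they differ from the software's own by at most 0.005.

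Background was corrected by normexp (offset 50), leaving out spots whose local background exceeded 5 times the array median, and arrays were normalized by loess. Control spots were left out and outlier-marked spots (8.827 to 14.23% per array) kept. Replicate spots were averaged per probe and probes per gene, giving 27694 genes. Names came from accessions through RefSeq for 66.8% of probes and otherwise from symbols or the files' own names. Genes were tested where Cy5 was well above background on at least 3 of the 6 arrays. limma 3.58.1 in R 4.3.3 fitted the 12 P7 arrays of the 4 genotypes together, with 3 per group, and Benjamini-Hochberg adjustment over all tested genes. The 2 interactions used the same values. The number of arrays limits the precision. SEs and p-values at P7 use a spread between mice that is pooled over all 4 genotypes, Keap1-/- and Nrf2-/-Keap1-/- included, and moderated across genes. They are not the spread of the wild-type and Nrf2-/- mice alone. The test was checked on simulated data.

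The naming rule took Nfe2l2, Keap1, Rbm45, every called gene (if 20 or fewer), and each known target whose 3 mutant arrays lay below the 3 wild-type arrays. It also took the 3 members of lowest p of each list, the 3 nearest neighbours on each side of Nfe2l2, and the 5 lowest p and all called targets of each interaction. Not every gene it took is printed above. Genes named beyond that illustrate an array that stood apart, a marker or a list's range, or were chosen after their values were seen. Members and gene lists were chosen with earlier results of these data known. Replicate numbers did not pair the samples: deviations of same-numbered arrays correlated at 0.178, -0.196 and -0.174. Alternatives covered background, normalization, filters, probe choice, arrays in the fit, slide, scan, replicate block and leaving out each mouse. The last 2 were added after the data were seen, namely leaving out wild-type replicate 1 and Nrf2-/- replicate 3 together, and the Eif2s3y level as a covariate.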

Additional observations from a re-analysis of the deposited data

Results flagged for a closer look

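The effect of Nrf2 loss differed between P7 esophagus and adult epithelium for 16 genes by the interaction test of limma. The 5 with the lowest p were Olah (-1.99, P7 minus adult effect on the log2 scale), a thioesterase gene below background at P7, Gstp1 (1.73), Akr1b8 (2.72), Plac8 (-2.91) and the esterase gene Esd (1.22). Plac8 stood at an effect of -0.55 at P7 and 2.36 in adults, and Esd at -0.17 and -1.39.

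The effect differed between esophagi with and without Keap1 for 2852 genes. The 5 genes with the lowest p were Slc7a11 (5.79, effect with Keap1 minus effect without), the keratin gene Krt19 (-6.71), Ifit1bl1 (-7.05), Pbp2 (-7.80) and Abcc4 (2.90). Of the other known targets with separate groups at P7, the difference was 4.51 for Nqo1, 4.46 for Srxn1, 1.99 for Gsta1, 6.04 for Gstm1, 2.66 for Cbr3, 2.41 for G6pdx, 1.13 for Me1 and 1.79 for Abcc3. Krt19 itself differed little with Keap1 present (0.13, SE 0.131).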

How the results depend on the processing

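The 3 calls at P7 numbered 6 in a fit over all 27 arrays, 9 with the slide as a random block and 2 to 6 when each mouse was left out; other settings gave 2 to 4. Nfe2l2 was not called (-1.41) once outlier-marked spots were dropped, since 50% of the spots of its first and second probes carry the mark. The 10 separated targets became 5 of 21 without marked spots, 20 without wild-type replicate 1 and Nrf2-/- replicate 3, and 11 to 16 without 1 mouse. The 3 separated barrier genes became 0 of 30, 10 and 4 to 23 in the same settings. The replicate block gave 4 calls, and 12 and 2611 genes in the age and Keap1 interactions; the counts of 10 targets and 3 barrier genes come from the array values and cannot move with a block. The age interaction, 16 genes, gave 1111 with each spot's own local background, 30 with median centring, 9 with scale normalization, 49 over all 27 arrays, 5 with the slide block, 0 with Eif2s3y as a covariate, 4 without both arrays that stood apart and 4 to 20 without 1 mouse. The Keap1 interaction, 2852 genes, gave 1808 without both arrays, 1187 with Eif2s3y and 2172 to 3083 without 1 mouse; the scan as a block could not act there. The cause of these changes was not tested. Both called genes besides Nfe2l2 kept their sign in every setting; Upk3a was called in 15 of 23 alternatives.

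Signs turned only for genes with small or split differences, all without a call. With the scanner's processed signals and the deposited ratios alike these were Abcc4 (0.037), Blvrb (-0.035), Krt19 (-0.146) and Mgst1 (0.051). With median centring they were Akr1b8 (0.087), Gstp1 (0.043), Hnrnpa3 (0.067), Mgst1 (0.090), Sqstm1 (0.064) and Txnrd1 (0.023), and with scale normalization Akr1b8 (0.070). Without marked spots they were Gclc (-0.455) and Hnrnpa3 (0.131). With Eif2s3y they were Blvrb (-0.137), Gclc (-0.189), Ggct (-0.021), Gstp1 (0.0094) and Ugt1a6b (-0.041). Leaving out 1 mouse, or wild-type replicate 1 and Nrf2-/- replicate 3 together, gave -0.26 to 0.16 for Akr1b8, -0.90 to 0.037 for Aldh1a1, -0.16 to 0.16 for Blvrb, -0.014 to 0.60 for Cat, -0.45 to 0.39 for Gclc, -0.012 to 0.22 for Gsr, -0.16 to 0.018 for Gstp1, -0.105 to 9.78e-05 for Hnrnpa3, -0.71 to 0.35 for Mgst1, -0.20 to 0.051 for Sqstm1, -0.39 to 0.16 for Taldo1, -0.21 to 0.033 for Txnrd1 and -0.13 to 0.19 for Ugt1a6b.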
